A study of Mus musculus with 8 samples.

Results

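Fh1 and 6 further genes of metabolism or metabolic disease (Jazf1, Parm1, Pla2g12a, Ak4, Dctd and Cpe) were followed through maps of lamina associated domains (LADs), the stretches of the genome that contact the nuclear lamina. These 7 genes, of 22367 protein-coding genes in the annotation of mouse genome build mm9, are among the loci that the study discusses by name as having changed position, and it names others too. The study picked them from these same maps together with expression changes on microarrays, and reported FISH for Fh1 and Dctd. Their LAD state is therefore given as a description with no test. All 7 were found in the annotation.

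LaminB1-DamID was carried out in 3T3-L1 cells, an established mouse fibroblast line that becomes adipocyte-like after hormonal induction. In DamID a bacterial adenine methylase (Dam) is fused to LaminB1, a protein of the nuclear lamina, so that GATC sites near the lamina are methylated, and free Dam serves as the control. The 8 libraries were 1 Dam and 1 LaminB1-Dam library for each of 4 conditions, so no value has a replicate and no difference can be set against a spread between cultures. The question was where genes lie before and after adipogenesis, and what changes when the nuclear envelope protein Tmem120a is depleted.

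The preadipocyte libraries came from undifferentiated, untreated cells at day 0. The adipocyte libraries came from cells at day 9 of differentiation that carried a control non-target shRNA. The Tmem120a knockdown libraries came from day 9 adipocytes with a Tmem120a shRNA (single knockdown in the text), and the double knockdown libraries from day 9 adipocytes with Tmem120a/b shRNA, which also targets the paralog Tmem120b. The 3 adipocyte conditions shared induction with insulin, dexamethasone, IBMX and rosiglitazone, used stable shRNA lines, and received the Dam lentivirus during differentiation. The preadipocytes received it while undifferentiated. The preadipocytes carried no shRNA, and the study's results text gives them a shorter time between transduction and harvest. Differentiation, the presence of a control shRNA and this time cannot be told apart in the comparison of preadipocytes with adipocytes. The shRNA knockdowns could not be checked here, because the LAD lists hold no expression values, and neither could the cell type.

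The lists differed in how finely LADs were divided. The preadipocyte list held 3914 LADs with a median length of 83.2 kb, the adipocyte list 2542 of 103 kb, the single knockdown list 5723 of 59.1 kb and the double knockdown list 6971 of 60.7 kb. Every value for a knockdown below comes from a list of more and shorter LADs than that of the adipocytes, and the part of this division in the results was not tested. The 2 deposited lists of differential regions hold 2021 stretches in LADs of preadipocytes and not of adipocytes, called released here, and 1808 stretches of the opposite kind, called recruited.

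Genes inside LADs are often, though not always, weakly expressed, and LADs differ between cell types at a minority of loci. A gene can leave the lamina as part of a long domain or alone, when a LAD opens around it. The 7 genes belong to different branches of metabolism. Fh1 encodes fumarate hydratase, the enzyme of the tricarboxylic acid cycle that turns fumarate into malate. Ak4 is an adenylate kinase of the mitochondrial matrix. Dctd encodes dCMP deaminase, which supplies dUMP for thymidylate synthesis. Pla2g12a is a secreted phospholipase A2. Cpe is carboxypeptidase E, which trims basic residues from the ends of prohormone intermediates. Jazf1 encodes a nuclear zinc finger protein found with the NuA4/TIP60 acetyltransferase complex, and Parm1 a mucin-like membrane glycoprotein.

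The promoters of 5 of the 7 genes (Fh1, Jazf1, Parm1, Pla2g12a and Ak4) were inside a LAD in some lists and outside in others. The 200 bases before their annotated starts are shown because they lie in the promoter windows whose LAD state differed between lists. They were read from the mm9 genome at chr1:177555767-177555966 (minus strand), chr6:53018626-53018825 (minus), chr5:91946441-91946640 (plus), chr3:129581324-129581523 (plus) and chr4:101091682-101091881 (plus), 5′ to 3′ on the gene's strand. Capitals mark, on either strand, the DamID site GATC, the GC box GGGCGG, the CAAT box CCAAT and the TATA box TATAAA.
Fh1: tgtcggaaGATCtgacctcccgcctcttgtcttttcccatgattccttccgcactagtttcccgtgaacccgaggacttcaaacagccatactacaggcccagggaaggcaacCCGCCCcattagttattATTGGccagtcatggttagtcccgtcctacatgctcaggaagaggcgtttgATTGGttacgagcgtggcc
Jazf1: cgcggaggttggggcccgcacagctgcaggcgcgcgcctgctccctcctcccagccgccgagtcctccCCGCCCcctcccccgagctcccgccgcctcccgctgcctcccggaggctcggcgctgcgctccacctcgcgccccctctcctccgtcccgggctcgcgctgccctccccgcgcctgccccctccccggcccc
Parm1: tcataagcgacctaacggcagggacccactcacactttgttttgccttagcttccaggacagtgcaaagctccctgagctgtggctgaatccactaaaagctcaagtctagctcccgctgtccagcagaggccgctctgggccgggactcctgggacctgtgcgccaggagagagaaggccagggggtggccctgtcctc
Pla2g12a: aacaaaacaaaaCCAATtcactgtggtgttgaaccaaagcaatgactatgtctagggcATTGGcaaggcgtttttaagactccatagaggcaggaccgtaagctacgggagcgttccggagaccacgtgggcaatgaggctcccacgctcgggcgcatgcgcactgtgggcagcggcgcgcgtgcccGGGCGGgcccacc
Ak4: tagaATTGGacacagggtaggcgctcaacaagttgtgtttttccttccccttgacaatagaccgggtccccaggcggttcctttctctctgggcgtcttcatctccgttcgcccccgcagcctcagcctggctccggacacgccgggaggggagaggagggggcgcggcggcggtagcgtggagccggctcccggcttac

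Over all 7 genes, including Dctd and Cpe, which are not shown, GGGCGG was present in the stretch of 4 genes, against 38.0% of all protein-coding genes. CCAAT was present in 3, against 30.6% of all genes, and TATAAA in none, against 10.1%. GATC was present in the stretch of Fh1 and of no other member, against 32.9% of all genes. In the Fh1 stretch GATC lay 192 bases before the start. The 5 stretches shown ranged in G+C from 53.5% at Fh1 to 82% at Jazf1. A match is only a match of letters. The promoter window used below ran from 2 kb before to 500 bases after the start. It held 1 GATC site at Jazf1, 3 at Fh1, 4 at Dctd, 6 at Parm1, 7 at Pla2g12a and at Cpe, and 9 at Ak4. The window thus holds few DpnI fragments, the pieces between neighbouring GATC sites. LADs were called by segmentation over runs of such fragments, so a promoter's state comes from the longer segment around it.

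Borders of LADs around these genes lay at GATC cut sites throughout. All 118 borders in the 7 windows of 300 kb to each side fell at such a site, and the fragments that meet there had a median length of 318.5 bp, from 6 to 2268 bp. This follows from the method, since LADs were called over fragments between GATC sites and positions were read as counted from the cut. A border is therefore resolved no finer than a fragment. Its precision depends on runs of fragments and was not measured. The stretches of 28 bases at the borders that moved around the starts of Fh1, Jazf1, Pla2g12a and Ak4 are shown, read on the plus strand of mm9, with the cut site in capitals.
Fh1, adipocyte, 43.4 kb after the start (chr1:177512377-177512404): taagagtcagaaGATCagtgattatgag
Fh1, adipocyte, 16.6 kb before the start (chr1:177572316-177572343): ccctattggatgGATCtgttctactgat
Fh1, double knockdown, 17.2 kb after the start (chr1:177538547-177538574): tgtctacactctGATCttctgtctactc
Fh1, double knockdown, 28.6 kb before the start (chr1:177584361-177584388): cataacgtacctGATCcccacccattca
Jazf1, double knockdown, 7.24 kb after the start (chr6:53011376-53011403): ggcctttgccagGATCtgaagtacttct
Jazf1, double knockdown, 7.84 kb before the start (chr6:53026447-53026474): tctccaccccttGATCttacacttaaat
Pla2g12a, preadipocyte, 3.80 kb after the start (chr3:129585309-129585336): ctgagctcctggGATCtgcctgtctctc
Pla2g12a, single knockdown, 23.8 kb before the start (chr3:129557716-129557743): ggcttaagtgaaGATCttaaggcaaaga
Pla2g12a, double knockdown, 48.0 kb before the start (chr3:129533525-129533552): ctggaggcccttGATCttgaaatttatt
Ak4, preadipocyte, 5.46 kb after the start (chr4:101097326-101097353): aggctgtgagctGATCctctctgaaaag
Ak4, double knockdown, 1.99 kb after the start (chr4:101093862-101093889): tattcatactttGATCcacctcacctgc

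Across the 7 genes, 5 had some of the body in a LAD in preadipocytes and none in adipocytes (Fh1, Jazf1, Parm1, Pla2g12a and Ak4), and Cpe was the reverse. With only LADs of at least 30 kb the count was 4, without Parm1, and with at least 50% of the body required it was 1 (Fh1), and the call for Cpe rests on 0.277% of its body and was lost with only LADs of at least 100 kb. Of all protein-coding genes, 4.81% were released by this rule and 1.88% recruited. These shares are given for scale, since the genes were chosen on this contrast. By promoter, 4 were released (Fh1, Jazf1, Pla2g12a and Ak4), beside 4.01% of all genes, and none was recruited, beside 1.82%. Dctd met no LAD with its body or promoter in any list. In all, 5, 1, 3 and 4 of the 7 bodies met a LAD in preadipocytes, adipocytes, single and double knockdown, beside 26.2%, 23.3%, 27.5% and 29.5% of all bodies, and 4, 0, 3 and 1 of the promoters did, beside 23.6%, 21.4%, 22.9% and 24.3% of all promoters. Among the 10037 genes between 17.2 and 299.8 kb long, the range of these 7, the shares were 5.92% and 1.87% by body and 4.5% and 1.62% by promoter.

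**Figure D1:**
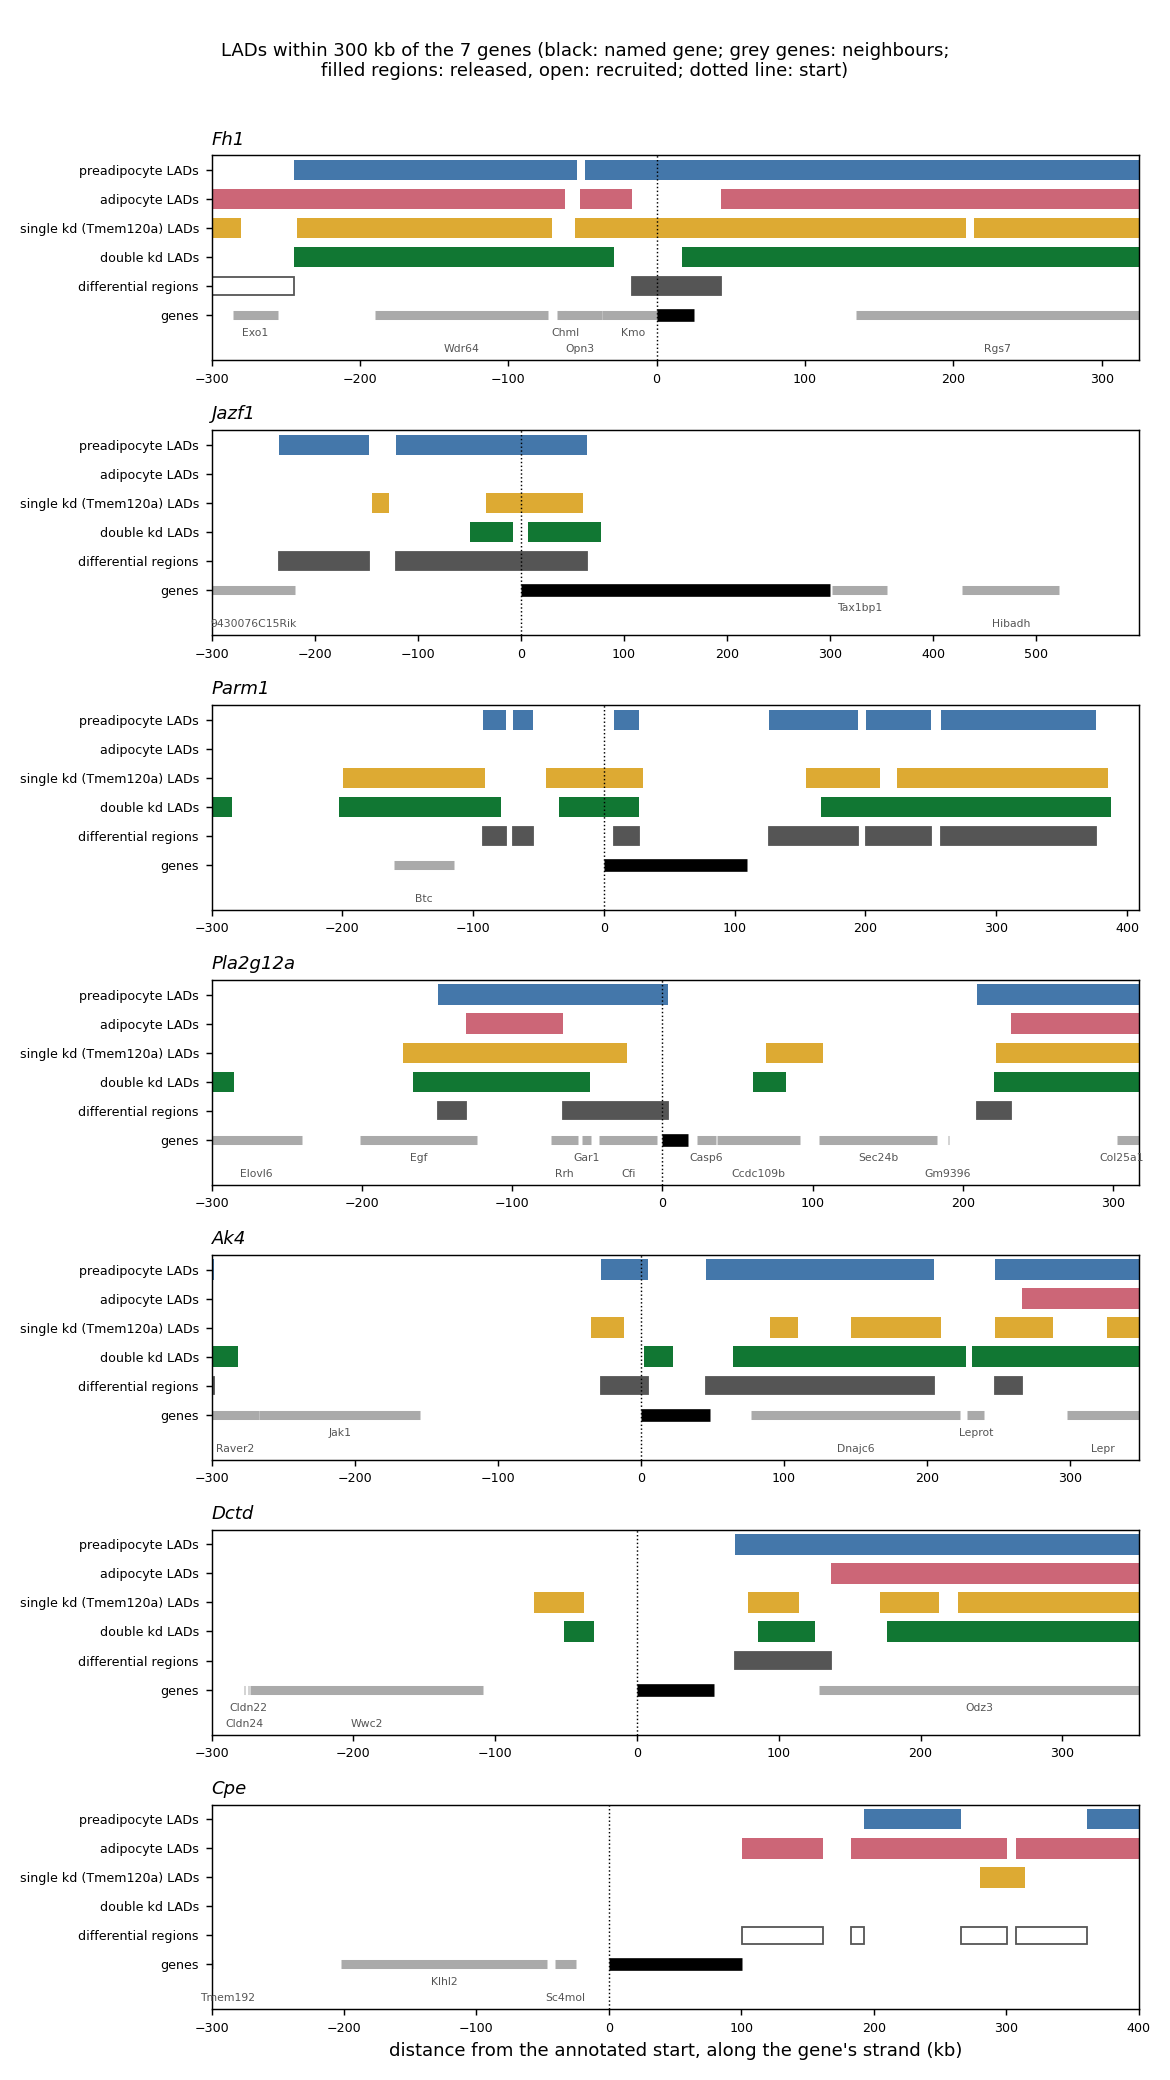
LADs around the 7 genes in the 4 lists, with released regions (filled), recruited regions (open) and genes, against distance in kb from each gene's annotated start along its strand. Fh1 lies in a gap of 59.9 kb in a nearly continuous adipocyte LAD, whereas no adipocyte LAD lies within 300 kb of Jazf1 or Parm1.

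Fh1 (ENSMUSG00000026526.7, chr1:177530505-177555766, minus strand, 10 exons) lay in surroundings dense in LADs in every list, and its own position differed between them. The share of its body in LADs was 100% in preadipocytes, 0% in adipocytes, 100% in the single knockdown and 31.9% in the double knockdown. The window from 300 kb before to 300 kb after it was 90.2%, 88.8%, 90.6% and 83.7% in LADs in the same order. The difference at Fh1 was thus local, with the window close to 90% in the first 3 lists while the gene was wholly inside or wholly outside.

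In preadipocytes a LAD of 737 kb covered the gene and ended 48.4 kb before its start. In adipocytes the gene lay in a gap of 59.9 kb between a LAD of 646 kb, 18.1 kb beyond its 3′ end, and a LAD of 35.0 kb, 16.6 kb before its start. Of the 17619 gene starts outside adipocyte LADs, 1.13% lay in a gap no longer than this. The gap is the released region at chr1:177512391-177572330, and it holds Fh1 and part of Kmo.

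In the single knockdown a LAD of 264 kb covered Fh1 and ended 55.0 kb before the start, so the adipocyte gap was 100% inside a LAD there. In the double knockdown a gap was present again, at 45.8 kb, but displaced upstream along the gene. It ran from 17.2 kb inside the gene, in intron 6, to 28.6 kb before the start, so that exons 7 to 10 were in a LAD and exon 1 and the promoter were not. The adipocyte and double knockdown gaps shared 33.8 kb, which is 56.3% of the former and 73.7% of the latter. A LAD covered 100% of the promoter in preadipocytes and in the single knockdown, and 0% in adipocytes and in the double knockdown. With gaps under 50 kb closed, the Fh1 promoter and body were both 100% inside LADs in the double knockdown, as in the single knockdown.

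Beside Fh1, 5 of its 6 neighbours within 300 kb met LADs in both preadipocytes and adipocytes. Kmo, which encodes kynurenine 3-monooxygenase and overlaps Fh1 at its 5′ end on the opposite strand, was 100%, 47.7%, 100% and 18.9% in LADs in preadipocytes, adipocytes, the single knockdown and the double knockdown. Its share was thus lower in the adipocyte and double knockdown lists, as was that of Fh1. Exo1, an exonuclease of DNA repair lying 255 kb upstream, went the other way, with 0% in preadipocytes, 100% in adipocytes, 18.1% in the single knockdown and 0% in the double knockdown. The recruited region at Exo1 was 58.2 kb long and was 38.0% in LADs in the single knockdown and 0% in the double knockdown. The window thus held a released region at the gene and a recruited region at its upstream edge.

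**Figure D2:**
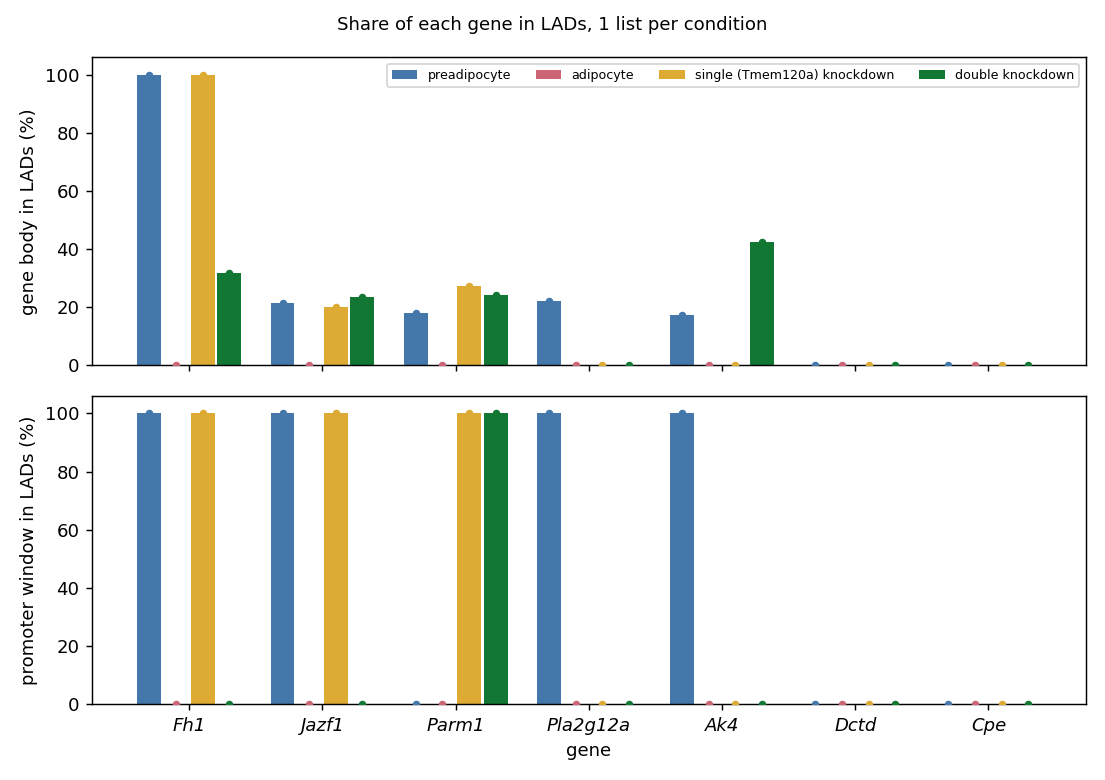
Share of the gene body (top) and of the promoter window (bottom) in LADs, in percent, for each gene in the 4 lists, with 1 bar per list and a dot at each value. Fh1 and Jazf1 have promoters wholly in LADs in preadipocytes and in the single knockdown, and Parm1 in both knockdowns.

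Ak4 (ENSMUSG00000028527.11, chr4:101091882-101140376, plus strand, 7 exons) was touched by LADs at both ends in preadipocytes, and by a LAD near its start, within intron 3, in the double knockdown. The share of the body in LADs was 17.3% in preadipocytes, 0% in adipocytes, 0% in the single knockdown and 42.6% in the double knockdown. These shares depend on how gaps are treated, since with gaps under 50 kb closed they were 100% in preadipocytes and 95.9% in the double knockdown. They also depend on LAD length, with 0% of the body in the double knockdown from LADs of at least 30 kb, and 0% of the promoter in preadipocytes from LADs of at least 100 kb. The preadipocyte share was made of 2 pieces. A LAD of 33.5 kb covered the promoter and the start to 5.46 kb into the gene, in intron 3, and a LAD of 159 kb covered the last 2.95 kb, within exon 7, and ran downstream.

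The double knockdown LAD at Ak4 was 20.7 kb long and lay wholly within intron 3, from 1.99 to 22.7 kb after the start. It thus met the body and held no exon, and the promoter was 100% inside the preadipocyte LAD and outside LADs in the other 3 lists. In the single knockdown a LAD of 23.0 kb ended 11.9 kb before the start. The study lists Ak4 among genes not released in the Tmem120a knockdown, whereas its body and promoter were outside LADs in that list. The released regions that meet its body were 48.2% and 48.7% in LADs there. In adipocytes the nearest LAD lay 218 kb beyond the 3′ end, and the start stood in a stretch of 4164 kb without a LAD, which 65.5% of starts outside LADs did not exceed. Within that stretch the preadipocyte list held 12 pieces of LADs over 813 kb, the single knockdown list 12 over 428 kb and the double knockdown list 18 over 1050 kb.

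Downstream of Ak4 the 300 kb flank was 85.8% in LADs in preadipocytes, 27.3% in adipocytes, 48.6% in the single knockdown and 93.1% in the double knockdown. The double knockdown was the highest of the 4. Dnajc6, which encodes an auxilin of clathrin uncoating, lay in that flank and was 87.2%, 0%, 56.6% and 100% in LADs. Raver2, an RNA-binding protein gene 267 kb upstream, was 62.0%, 0%, 0% and 82.5%. Both were released in adipocytes, and Raver2 met no LAD in the single knockdown. Lepr, the leptin receptor gene, was chosen after its values were seen and was 100%, 100%, 57.0% and 95.8%.

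Dctd (ENSMUSG00000031562.8, chr8:49184446-49238587, plus strand, 6 exons) lay outside LADs in all 4 lists, and the differences around it were in the distance to the next LAD. Downstream of the 3′ end the nearest preadipocyte LAD began after 14.7 kb and the nearest adipocyte LAD after 83.0 kb. It began at 23.9 kb in the single knockdown and at 31.3 kb in the double knockdown. The released region between the first 2 of these borders was 68.3 kb long, and was 53.2% in LADs in the single knockdown and 58.8% in the double knockdown. Dctd itself was not in the region. The study describes Dctd as moving to the nuclear envelope in adipogenesis, but not with Tmem120a knocked down, and reports FISH for it. That direction is opposite to the released region here, and no recruited region lay within 300 kb of Dctd.

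Upstream of Dctd the 300 kb flank held no LAD in preadipocytes or adipocytes. It held a LAD of 34.8 kb in the single knockdown, ending 37.4 kb before the start, and a LAD of 21.1 kb in the double knockdown, ending 30.4 kb before the start. The gap that holds the start was therefore shorter in the knockdowns, at 115 and 116 kb, than in preadipocytes (373 kb) or adipocytes (772 kb). The start was 68.8 and 137 kb from the nearest LAD border in preadipocytes and adipocytes, and 37.4 and 30.4 kb in the single and double knockdowns. Odz3, a teneurin gene downstream, lay partly in the released region and was 100%, 98.1%, 68.3% and 51.4% in LADs.

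**Figure D3:**
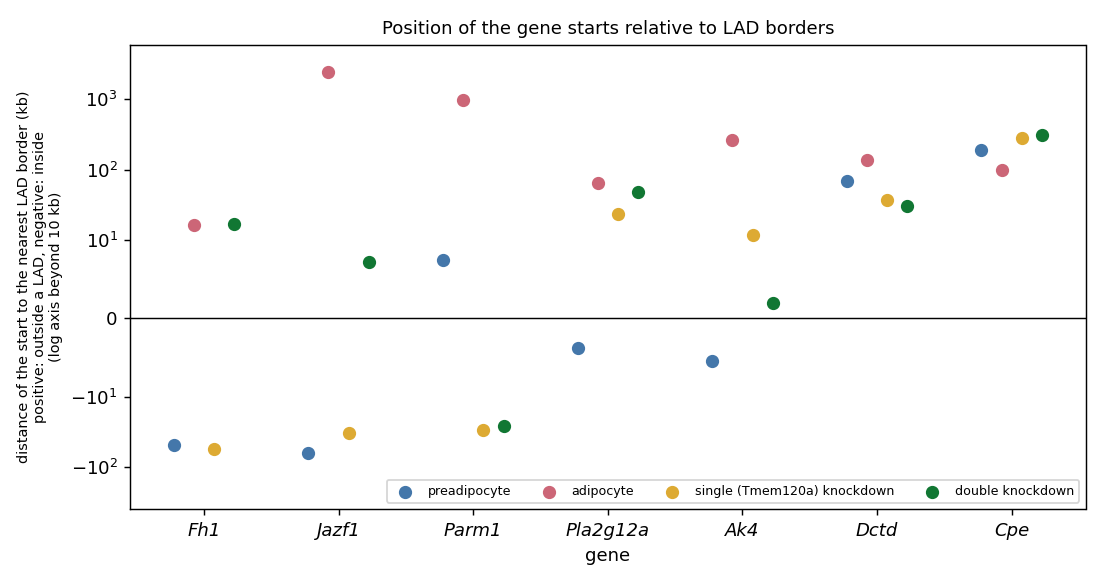
Distance in kb from the annotated start to the nearest LAD border in each list, positive outside a LAD and negative inside, on an axis that is logarithmic beyond 10 kb. The adipocyte points are the farthest outside for Jazf1, Parm1, Pla2g12a, Ak4 and Dctd, while Cpe in adipocytes, at 100 kb, is the nearest of its 4 points.

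Pla2g12a (ENSMUSG00000027999.8, chr3:129581524-129598739, plus strand, 5 exons) met a LAD with its 5′ part in preadipocytes, 22.1% of the body, and had 0% in the other 3 lists. That LAD, of 153 kb, covered the promoter and exons 1 and 2 and ended 3.80 kb into the gene, in intron 2. The upstream LAD ended 65.9 kb before the start in adipocytes, 23.8 kb before it in the single knockdown and 48.0 kb before it in the double knockdown. The border thus lay at an intermediate position in both knockdowns, closer to the gene than in adipocytes and never reaching it. The study lists Pla2g12a, too, among genes not released in the Tmem120a knockdown. In the single knockdown list its body and promoter were outside LADs, and the released region that meets it was 60.4% inside.

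The upstream 300 kb flank of Pla2g12a was 49.7% in LADs in preadipocytes, 21.6% in adipocytes, 49.6% in the single knockdown and 44.4% in the double knockdown. The downstream flank was 36.0%, 28.5%, 44.5% and 39.4% in the same order. In both flanks the adipocyte list was the lowest. Of 10 neighbours, 2 were released. Cfi, the complement factor I protease, ends 3.28 kb before Pla2g12a and was 100%, 0%, 46.8% and 0% in LADs, and Gar1, a protein of H/ACA small nucleolar particles, was 100%, 0%, 100% and 88.0%. Gar1 thus met a LAD in both knockdowns, Cfi in the single knockdown, and Pla2g12a in neither. Egf and Rrh also lay partly in released regions, with 33.2%, 9.39%, 63.6% and 55.0% for Egf, and 100%, 46.0%, 100% and 100% for Rrh, the peropsin gene.

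Cpe (ENSMUSG00000037852.7, chr8:67071355-67171837, minus strand, 9 exons) had LADs on its downstream side and none within 300 kb upstream in any list. The share of its downstream flank in LADs was 37.5% in preadipocytes, 91.0% in adipocytes, 11.1% in the single knockdown and 0% in the double knockdown. Both knockdowns were therefore below preadipocytes as well as below adipocytes. In adipocytes the nearest LAD, of 61.7 kb, reached the last 0.278 kb of the gene, within exon 9, which is 0.277% of the body. The promoter, 100 kb away, was outside LADs in every list.

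The 4 recruited regions downstream of Cpe were 61.7, 10.2, 34.7 and 54.1 kb long, in order of distance. In the single knockdown they were 0%, 0%, 57.9% and 12.5% in LADs, and in the double knockdown all 4 were at 0%. The nearest LAD lay 92.3 kb beyond the 3′ end in preadipocytes, 180 kb in the single knockdown and, on the upstream side, 308 kb away in the double knockdown. The 3 neighbours within 300 kb, Sc4mol, Klhl2 and Tmem192, all lay upstream and met no LAD in preadipocytes, adipocytes or the single knockdown. Tmem192, a lysosomal membrane protein gene at 299 kb, was 59.3% in a LAD in the double knockdown.

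Jazf1 (ENSMUSG00000063568.5, chr6:52718791-53018625, minus strand, 5 exons) is the longest of the 7 at 299.8 kb, and its LADs lay at the 5′ end. The share of the body in LADs was 21.5% in preadipocytes, 0% in adipocytes, 20.2% in the single knockdown and 23.6% in the double knockdown. These 3 shares were close to each other, except with only LADs of at least 100 kb, which left 0% in both knockdowns. The borders within the gene were all in intron 1, at 64.5 kb after the start in preadipocytes, 60.7 kb in the single knockdown, and 7.24 and 77.9 kb in the double knockdown. The part of the gene beyond intron 1 and its 300 kb downstream flank held no LAD in any list.

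The lists differed at the start of Jazf1. LADs covered 100% of the promoter in preadipocytes and in the single knockdown and 0% in adipocytes and in the double knockdown. Both knockdown values turned under other settings, to 100% in the double knockdown with gaps under 50 kb closed and to 0% in the single knockdown with only LADs of at least 100 kb. In the double knockdown the start stood in a gap of 15.1 kb, between a LAD of 70.6 kb that began 7.24 kb into the gene and a LAD of 41.8 kb that ended 7.84 kb before it. Of 17039 starts outside LADs in that list, 0.34% lay in a gap no longer than this. In adipocytes, by contrast, the start stood in a stretch of 5499 kb without a LAD, with the nearest 2458 kb away.

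The upstream flank of Jazf1 was 69.3% in LADs in preadipocytes, 0% in adipocytes, 16.9% in the single knockdown and 13.9% in the double knockdown. Of its 2 released regions, the one over the start (chr6:52954170-53139729, 186 kb) was 50.8% and 53.4% in LADs in the 2 knockdowns, and the one farther upstream, of 86.8 kb, was at 0% in both. The region that meets the gene was thus in part in LADs in both knockdowns, and the farther region was not. The neighbour 9430076C15Rik, which extends into the farther region, was 9.77% inside that preadipocyte LAD and 0% in the other 3 lists.

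Parm1 (ENSMUSG00000034981.9, chr5:91946641-92055920, plus strand, 4 exons) met LADs in intron 1 in preadipocytes and over its start in both knockdowns. The share of the body in LADs was 17.9% in preadipocytes, 0% in adipocytes, 27.5% in the single knockdown and 24.3% in the double knockdown. These shares rest on short LADs, being 0% in preadipocytes with only LADs of at least 30 kb and 0% in both knockdowns with only LADs of at least 100 kb. The preadipocyte LAD was 19.6 kb long and ran from 7.43 to 27.0 kb after the start, so it held no exon and no part of the promoter. The knockdown LADs, of 74.6 and 60.8 kb, ended at 30.02 and 26.5 kb after the start, near the preadipocyte border, and extended upstream past the promoter.

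The Parm1 promoter was outside LADs (0%) before and after differentiation and 100% inside in both knockdowns, where it was at 0% with only LADs of at least 100 kb. Of all protein-coding genes, 0.872% had this pattern by promoter. In adipocytes no LAD lay within 300 kb, the nearest was 987 kb away, and the start stood in a stretch of 2805 kb without a LAD. The upstream flank was 10.8% in LADs in preadipocytes, 0% in adipocytes, 51.1% in the single knockdown and 57.9% in the double knockdown, so that it was higher in both knockdowns than in preadipocytes. The downstream flank was 78.6%, 0%, 72.7% and 74.0% in the same order.

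Parm1 had 6 released regions within 300 kb, the most of the 7 genes. In the single knockdown they were between 0% and 100% in LADs, with 4 of the 6 at 50% or more, and in the double knockdown also 4 of 6. The region within the gene (chr5:91954071-91973634) was 100% and 97.7% in LADs in the 2 knockdowns. Its single protein-coding neighbour, Btc, which encodes the growth factor betacellulin, was in no LAD in preadipocytes or adipocytes and 100% in a LAD in both knockdowns. Btc was chosen after its values were seen.

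**Figure D4:**
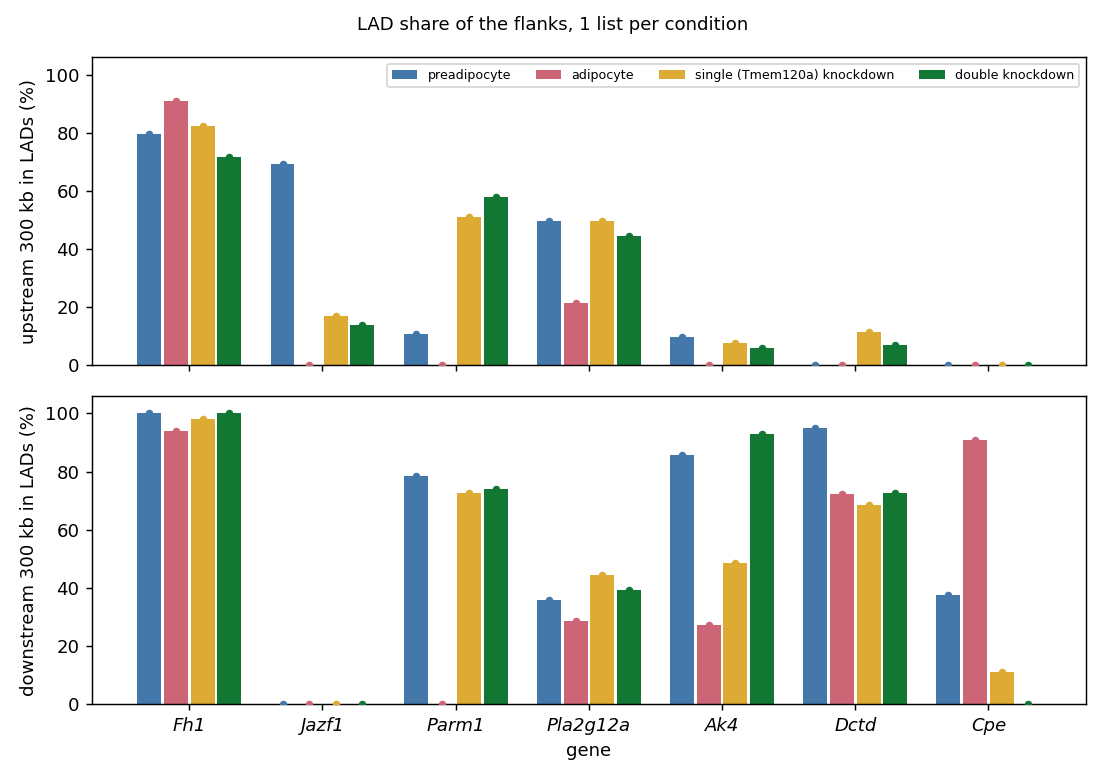
Share of the 300 kb before (top) and after (bottom) each gene body in LADs, in percent, in the 4 lists, with 1 bar per list and a dot at each value. The flanks of Fh1 are above 70% in every list, whereas both flanks of Parm1 are at 0% in adipocytes and above 50% in the 2 knockdowns.

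Taking the 14 flanks of 300 kb as a set, their median share in LADs was 43.6% in preadipocytes, 10.8% in adipocytes, 46.6% in the single knockdown and 41.9% in the double knockdown. For the whole windows, body included, the median over the 7 genes was 42.3%, 24.3%, 36.7% and 40.7% in the same order, beside 9.66%, 2.48%, 11.01% and 13.4% over all protein-coding genes. The adipocyte list was the lowest by either measure, while the single knockdown was above preadipocytes by flanks and below them by windows. They also had fewer genes around them, with a median of 4 protein-coding neighbours within 300 kb (1 to 10), against 11 for all genes. Their median length was 54.1 kb, against 15.4 kb. They held a median of 21.2 GATC sites per 10 kb of body, against 24.1, and their G+C was 44.1%, against 45.6%. With 7 genes chosen by their behaviour, these are descriptions and no more.

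The comparisons of adipocytes with the 2 knockdowns share the adipocyte list and are set side by side. In the single knockdown 3 of the 7 bodies met a LAD that adipocytes lacked (Fh1, Jazf1 and Parm1), beside 6.13% of all genes, and in the double knockdown 4 did (those 3 and Ak4), beside 8.36%. By promoter the counts were 3 (Fh1, Jazf1 and Parm1), beside 3.93%, and 1 (Parm1), beside 5.5%. The study chose these genes with the adipocyte list and the single knockdown in view, and it also describes double knockdown traces for several of them. Nothing is therefore read from either count of each pair. In the opposite direction Cpe met a LAD in adipocytes and in neither knockdown, beside 1.95% and 2.1% of all genes.

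Among the 5 genes released by body, 3 met a LAD in the single knockdown and 4 in the double knockdown. Over all 1076 released genes, 41.4% and 55.5% did. Among the 4 released by promoter, 2 had the promoter in a LAD in the single knockdown and 0 of 4 in the double knockdown. Over all 897 genes released by promoter, 32.6% and 45.4% did. Fh1, Jazf1 and Ak4 thus met a LAD with the body in the double knockdown while their promoters did not, with borders 17.2, 7.24 and 1.99 kb from the start. This contrast was lost for each of the 3 under some setting: for Fh1 and Jazf1 with gaps under 50 kb closed, and for Ak4 with 5 kb on each side of the start as the promoter (30.06% in a LAD) or with only LADs of at least 30 kb (body at 0%).

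Being in a LAD by body in every list but that of adipocytes, as Fh1, Jazf1 and Parm1 were, was found for 322 of 22367 genes. Being in one in preadipocytes and no other list, as Pla2g12a was, was found for 356 genes. The pattern of Ak4, preadipocytes and the double knockdown, was found for 275 genes, that of Cpe, adipocytes and no other list, for 97, and that of Dctd, no list, for 14251. By promoter, 111 genes had the pattern of Fh1 and Jazf1, 379 that of Pla2g12a and Ak4, 195 that of Parm1, and 15469 that of Dctd and Cpe, in no list.

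Within 300 kb of the 7 genes lay 17 released regions, near 6 of them, and 5 recruited regions, near Fh1 and Cpe. Of all protein-coding genes, 32.3% had a released region and 17.7% a recruited region within this distance. At least 3 released regions lay near Parm1, Pla2g12a and Ak4, beside 6% of all genes. The released regions near the 7 genes had a median length of 59.9 kb, from 15.4 to 185.6 kb, against 37.1 kb for all 2021.

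Of the 17 released regions, 10 were at least 50% in LADs in the single knockdown and 10 in the double knockdown, beside 35.7% and 46.7% of all released regions. These counts are spread over 6 genes in the single knockdown and 5 in the double knockdown, where the region at Fh1 stood at 43.7%. Of the 5 recruited regions, 4 were at least 50% outside LADs in the single knockdown and 5 in the double knockdown, beside 46.3% and 56.1% of all recruited regions. Regions near 1 gene share a locus and are not replicates of each other.

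**Figure D5:**
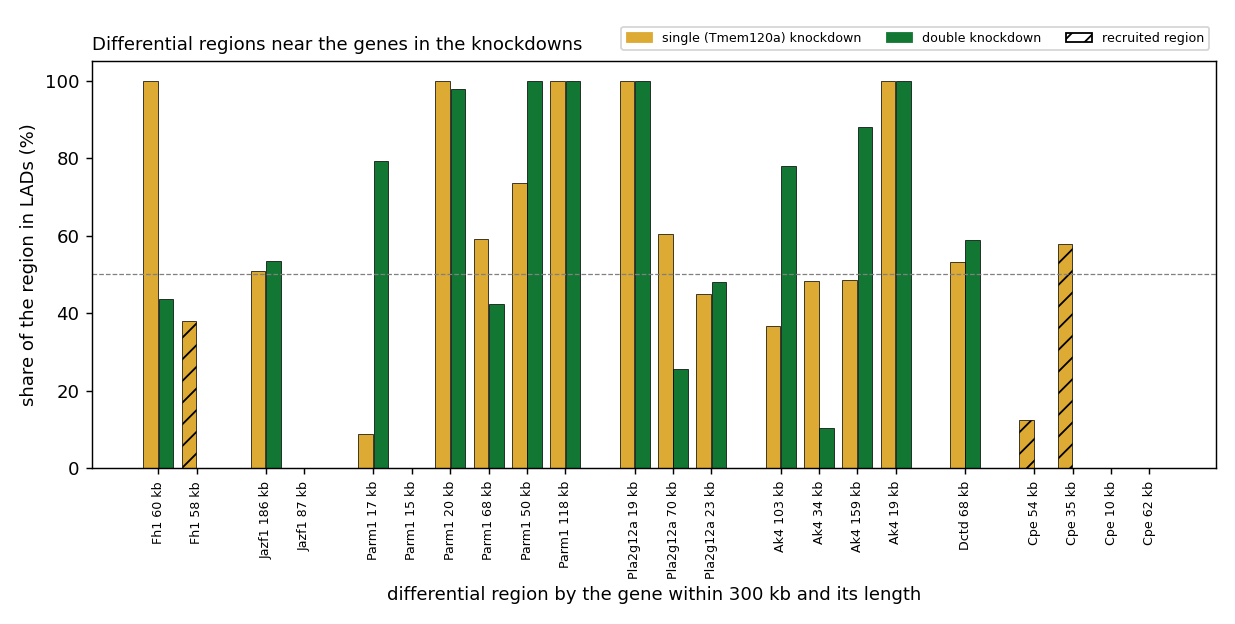
Share in LADs of each released (plain bars) and recruited (hatched bars) region within 300 kb of the 7 genes, in percent, in the 2 knockdowns, with the region's length in kb and a dashed line at 50%. The released region at Fh1 stands at 100% in the single knockdown and 43.7% in the double knockdown, and the 5 recruited regions are at 0% in the double knockdown.

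The 2 knockdowns were not alike at these regions. Measured in bp within 300 kb, the sequence in LADs of preadipocytes and not of adipocytes was in LADs of the single knockdown for 89.7% at Fh1, 75.03% at Parm1, 63.8% at Pla2g12a, 53.2% at Dctd, 52.9% at Ak4 and 34.6% at Jazf1. In the double knockdown the shares were 50.3% at Fh1, 79.7% at Parm1, 42.7% at Pla2g12a, 58.8% at Dctd, 76.9% at Ak4 and 36.4% at Jazf1. Fh1 and Pla2g12a were higher in the single knockdown, and Ak4, Dctd, Parm1 and Jazf1 were higher in the double knockdown, Jazf1 by the least. Over all chromosomes the shares were 36.2% and 46.7%. With 1 library of each kind per condition, no such difference between knockdowns can be set against an error.

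In all 32 protein-coding neighbours of the 7 genes, 15 met a LAD in preadipocytes, 11 in adipocytes, 16 in the single knockdown and 18 in the double knockdown, beside 26.2%, 23.3%, 27.5% and 29.5% of all genes. Of these neighbours, 5 were released (9430076C15Rik, Gar1, Cfi, Raver2 and Dnajc6), 1 was recruited (Exo1), 10 met LADs before and after and 16 met neither. Of all genes, 4.81% were released and 1.88% recruited, and the neighbours share the loci chosen with the 7 genes. Of the 5 released, 3 met a LAD in the single knockdown and 3 in the double knockdown, beside 41.4% and 55.5% of all 1076 released genes. A further 6 met no LAD before or after differentiation and met one in a knockdown (Btc, Elovl6, Ccdc109b, Sec24b, Leprot and Tmem192), as did 8.19% of all genes and none of the 7. These 6, and Sc4mol and Klhl2 above, were named after their values were seen.

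The other genes of the pathways to which these genes belong were then read in the same way. Of 111 listed symbols 107 were found, and 87 of these met no LAD in any list, beside 14251 of all 22367 genes. A LAD was met by 11 in preadipocytes, 8 in adipocytes, 14 in the single knockdown and 15 in the double knockdown, beside 26.2%, 23.3%, 27.5% and 29.5% of all genes. Released by body were 4, Suclg2, Ak5, Cpb2 and Pcsk6, and recruited was Cpb1, beside 4.81% and 1.88% of all genes.

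Of the 25 other genes of the tricarboxylic acid cycle and its feeder enzymes, 21 met no LAD in any list. Of all 22367 genes, 14251 met none. Sucla2 and Me3 met one in the single knockdown alone, with 14.3% and 8.43% of the body. Suclg2, a subunit of succinate-CoA ligase, was 20.7% in LADs in preadipocytes and 0% in the other 3 lists. Dld, the dihydrolipoamide dehydrogenase shared by the 2-oxoacid dehydrogenase complexes, was 81.3% in a LAD in the double knockdown and 0% in the other lists. Of 6 other adenylate kinases found, Ak5 alone met a LAD, with 17.0% in preadipocytes, 0% in adipocytes and in the single knockdown, and 10.7% in the double knockdown. Its promoter was in a LAD in preadipocytes and in no other list.

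Of 21 genes of deoxyribonucleotide metabolism, none met a LAD in preadipocytes or adipocytes, as Dctd did not. Of all genes, 26.2% and 23.3% did. Dck, deoxycytidine kinase, was 100% and Rrm2b, a ribonucleotide reductase subunit, 52.6% in a LAD in the double knockdown. Of 19 phospholipases A2, 17 met no LAD, beside 14251 of all 22367 genes, and Pla2g4a and Pla2g4c were the exceptions. Pla2g4a was at 0% in preadipocytes and adipocytes, 27.0% in the single knockdown and 0.324% in the double knockdown. Pla2g4c was 79.0%, 100%, 62.3% and 67.8% in LADs by body, and its promoter was at 0%, 100%, 0% and 0%. All 17 genes found of the NuA4/TIP60 complex, beside Jazf1, were outside LADs in all 4 lists, as were 14251 of all 22367 genes.

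The prohormone processing enzymes and basic carboxypeptidases, beside Cpe, were the list with the most LADs, with 8 of 19 in preadipocytes, 7 in adipocytes, 9 in the single knockdown and 8 in the double knockdown. Over all genes the shares in the same order were 26.2%, 23.3%, 27.5% and 29.5%. Cpb1, a pancreatic carboxypeptidase gene, was 0%, 100%, 86.4% and 2.35% in LADs by body, and its promoter was at 0%, 100%, 100% and 100%. Cpb2, a plasma carboxypeptidase gene, was 59.8%, 0%, 52.7% and 70.4%. Pcsk6, a proprotein convertase gene, was 3.03% in preadipocytes and 0% in the other lists. The prohormone convertase Pcsk1 was at 100% in every list. Sucla2, Me3, Dld, Dck, Rrm2b, Pla2g4a, Pla2g4c and Pcsk1 were chosen after their values were seen.

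The genes whose 4 body shares were most like those of each gene were found by the Euclidean distance over the 4 lists, in percentage points. For Fh1 the nearest were Capsl, at 1.66 points, Rad21l at 6.57, Scg3 at 6.75, Ttpa at 11.3 and Zfp944 at 11.4, and 3 genes lay within 10 points. Capsl, on chromosome 15, was 100%, 1.66%, 100% and 31.9% in LADs. For Ak4 the nearest were Jakmip1, Lrrn2 and Prdm16, at 1.97, 3.62 and 4.51 points, with 11 genes within 10 points.

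Jazf1 and Parm1 were near each other by this measure, at 8.10 points, with 6 and 5 genes within 10 points of them. Cobl and Crmp1 were the other two nearest to Jazf1, at 6.02 and 8.12 points, and Gm10332 and Cobl to Parm1, at 5.599 and 8.07 points. For Pla2g12a they were Unc5a, Snph and Atp9a, within 0.833 points, and 63 genes lay within 10. For Cpe, whose shares are all near 0, 14520 genes lay within 10 points, so its 3 nearest, Nin, Nup93 and Nfix, at 0% in every list, carry no information.

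RefSeq starts, taken from promoter sequences of build GRCm38.p6 and located by sequence in mm9, were found for 6 of the 7 genes. They lay within 0.43 kb of the annotated start for Fh1, Parm1, Ak4 and 1 start each of Jazf1 and Dctd, and 2.58 kb from it for Pla2g12a. Further Dctd starts lay 10.87 and 10.92 kb inside the gene. A second Jazf1 start lay 159 kb inside the gene, and its promoter window was outside LADs in all 4 lists. At the RefSeq starts other than this Jazf1 start, the promoter was in a LAD in the same lists as at the annotated start.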

How the data were processed

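LaminB1-DamID was measured in 8 libraries of 3T3-L1 cells, as described above. The authors mapped reads to mouse build mm9, took log2(LaminB1/Dam) for each DpnI fragment and called LADs by segmentation with the DNAcopy package. The submitters' processing notes also name BWA and limma. The deposited files are 4 lists of LAD positions and 2 lists of differential regions, in bp, with no score, ratio or count, so read depth is unknown and no interval that needs it is given. The abbreviation in each list's name served to match it with a condition. The rule for differential regions is not stated in full.

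The deposited positions were read as counted from 1 at the GATC cut, on which 97.8%, 96.5%, 98.6% and 98.8% of borders then lay on the NCBIM37 sequence (mm9) in the order of lists used above. Genes came from GENCODE vM1. Shares were computed per bp with numpy 2.4.6 in Python 3.11.15, and plots made with matplotlib 3.10.9. Exons were those of the transcript with the longest coding sequence, and an exon was counted in a LAD where at least 50% of it was. The promoter was 2 kb before to 500 bases after the start. A gene was in a LAD at any overlap, released if in a LAD in preadipocytes and not in adipocytes, and recruited if the reverse. The interval code was checked on simulated intervals.

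The named genes are the 7 genes, neighbours within 300 kb that changed state or lay in a differential region, pathway genes that changed state, and the 3 genes (5 for Fh1) with the nearest body shares outside the window. Genes named after their values were seen are marked as such. The members and lists were chosen with earlier results of these data known. No test was made, because no condition has a replicate. Alternatives were LAD lengths, closed gaps, promoter definitions, window lengths, the source of the regions, autosomes alone and, chosen after seeing the data, RefSeq starts.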

Additional observations from a re-analysis of the deposited data

Results flagged for a closer look

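The downstream 300 kb flank of Dctd moved in opposite directions between adipocytes and the 2 knockdowns, which share the adipocyte list. Its share in LADs was lower by 3.82 percentage points in the single knockdown (a difference of -3.82, from 72.3% to 68.5%) and higher by 0.453 percentage points in the double knockdown (72.8%). The difference between the knockdowns was not tested, since each condition has 1 library of each kind.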

How the results depend on the processing

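No paired analysis was possible because no condition has a replicate, and no replicate could be left out. With only LADs of at least 100 kb, the body of 0 of the 7 genes met a LAD in adipocytes, 1 in the single knockdown and 1 in the double knockdown, the promoter of 1 and 0 did in the 2 knockdowns, 3 flanks were at least 50% in LADs in the single knockdown, 2 pathway genes were released, and 666 of all genes were released by body and 584 by promoter. Fh1 is the gene left in the knockdowns, since the LADs at Jazf1, Parm1 and Ak4 there are shorter. With at least 50% of the body required, 1 gene (Fh1) was in LADs in preadipocytes, 0 in adipocytes, 1 in the single knockdown and 0 in the double knockdown, and 1 was released. With gaps under 50 kb closed, 3 promoters were in LADs in the double knockdown, because the gaps at Fh1 and Jazf1 are 45.8 and 15.1 kb, and Fh1 was then 100% in a LAD. The account of Ak4 also depends on these settings. With gaps under 50 kb closed LADs covered 100% of its body in preadipocytes and 95.9% in the double knockdown, and with LADs of at least 100 kb its preadipocyte body share was 6.07% and its preadipocyte promoter share 0%. With 5 kb on each side of the start as the promoter, 2 promoters (Parm1 and Ak4) met LADs in the double knockdown.

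With windows of 100 kb, 3 neighbours were released and 0 recruited, and 9, 6, 10 and 9 met LADs in the order of lists used above. There were then 11 released regions, 6 of them at least 50% in LADs in the double knockdown, beside 46.7% of all released regions. There were 2 recruited regions, 2 of them outside LADs in each knockdown, beside 46.3% and 56.1% of all recruited regions at least 50% outside. With windows of 500 kb, 10 neighbours were released, 2 were recruited, and 31, 23, 35 and 35 met LADs. A wider window holds more genes, and the number of neighbours is known here only for 300 kb. The neighbour counts at 100 and 500 kb are therefore not shares and are not set beside those of all genes. Counts under the other settings (LADs of at least 30 kb, gaps under 10 kb closed, the start base alone, the RefSeq start with the highest share, all pieces of the subtraction of the 2 LAD lists, autosomes alone) stayed within 1.5 times those reported. With LADs of at least 30 kb, the body shares of Parm1 in preadipocytes and of Ak4 in the double knockdown were 0%, so these rest on LADs of 19.6 and 20.7 kb.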
